A study of Mus musculus with 9 samples.

Results

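The transcription factors that hold a B cell in its mature state and those that turn it into an antibody-secreting plasma cell were followed in sorted splenic B cells of young and aged mice. These B cell and plasma cell fate regulators are Pax5, Ebf1, Bach2, Irf8, Spib, Pou2af1, Bcl6, Irf4, Prdm1 and Xbp1. They were chosen with earlier results of these data known and matched by gene symbol. All 10 were found among the 24346 genes listed in each of the 9 RNA sequencing libraries. The mice were wild-type C57BL6 with no transgene or treatment. There were 3 libraries each of follicular B cells of mice 8 weeks old, called FO B (Young), of follicular B cells of mice 50 weeks old, called FO B (Aged), and of age-associated B cells of mice 50 weeks old, called ABCs (Aged). All cells were gated as B cells with high B220 and no CD43. FO B cells were taken as CD23+ with low CD21, while ABCs also had low CD21, lacked CD23 and carried CD11b and CD11c. Levels are given as FPKM, read counts divided by transcript length and by sequencing depth, so that levels of different genes are compared per length.

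Pax5 and Ebf1 keep the B lineage program on, Bach2 and Bcl6 hold back the plasma cell program, and Bcl6 is the defining repressor of germinal center B cells. Prdm1, which encodes Blimp-1, shuts down the B cell program in plasma cells, and Xbp1 expands the secretory machinery through the unfolded protein response. Irf4 and Irf8 are related interferon regulatory factors with largely opposed parts in the choice between the plasma cell and B cell states. In the spleen, resting follicular B cells are known for high levels of the identity factors and very little Prdm1.

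The libraries held about 7300000 to 8880000 mapped reads, as judged from how much FPKM a single read adds, and between 10032 and 10445 genes at 1 FPKM or more. The genes of the sort were checked against the labels. Fcer2a, which encodes CD23, was at 3.86 ± 3.25 FPKM (SD, n = 3) in ABCs (Aged) and at 714 ± 15.7 in FO B (Aged). Itgax, which encodes CD11c, was at 50.7 ± 7.90 and 0.115 ± 0.0873 FPKM in the same groups. Spn, which encodes CD43, went against the gate at the RNA level, at 67.8 ± 16.9 FPKM in ABCs (Aged) and 3.05 ± 0.283 in FO B (Aged). The B lineage markers Ms4a1, Cd79a, Cd79b, Ptprc and Cd22 were well above 1 FPKM in every library. ABC replicate 3 stood somewhat apart, since its log2 levels correlated at 0.964 and 0.958 with the other ABC libraries, which correlated at 0.980 with each other. The labels do not say whether the aged FO B cells and ABCs came from the same mice, and p-values measure the spread between these libraries.

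Relative to FO B cells of the same age, ABCs of aged mice had less RNA of 3 of the 6 B cell identity factors. The germinal center factor Bcl6 was also lower, while Prdm1 and the identity factor Irf8 were higher. Of the 10 regulators, 4 were lower (Bcl6, Bach2, Ebf1 and Pax5) and 2 were higher (Prdm1 and Irf8) at a Benjamini-Hochberg adjusted p under 0.05 in limma on log2(FPKM + 1). Over all 10412 genes tested, 16.5% were lower and 19.4% were higher by the same rule. The 4 lower members are a larger share than this background and the 2 higher members are close to it. Because the members were chosen with earlier results of these data known, these shares are a description and not a test. At the stricter rule of an adjusted p under 0.01 with a log2 fold change beyond 2.3, 0 of 10 members and 1.92% of all genes were called. Scaling each library to its upper quartile moved the median of all genes to 0.155 (log2), the share of higher genes among the called from 54.0% to 80.3%, and the members to 3 higher (Xbp1 added) and 2 lower (Bcl6 and Bach2). With bulk RNA, fewer cells that express a gene and less RNA per cell cannot be told apart.

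**Figure D1:**
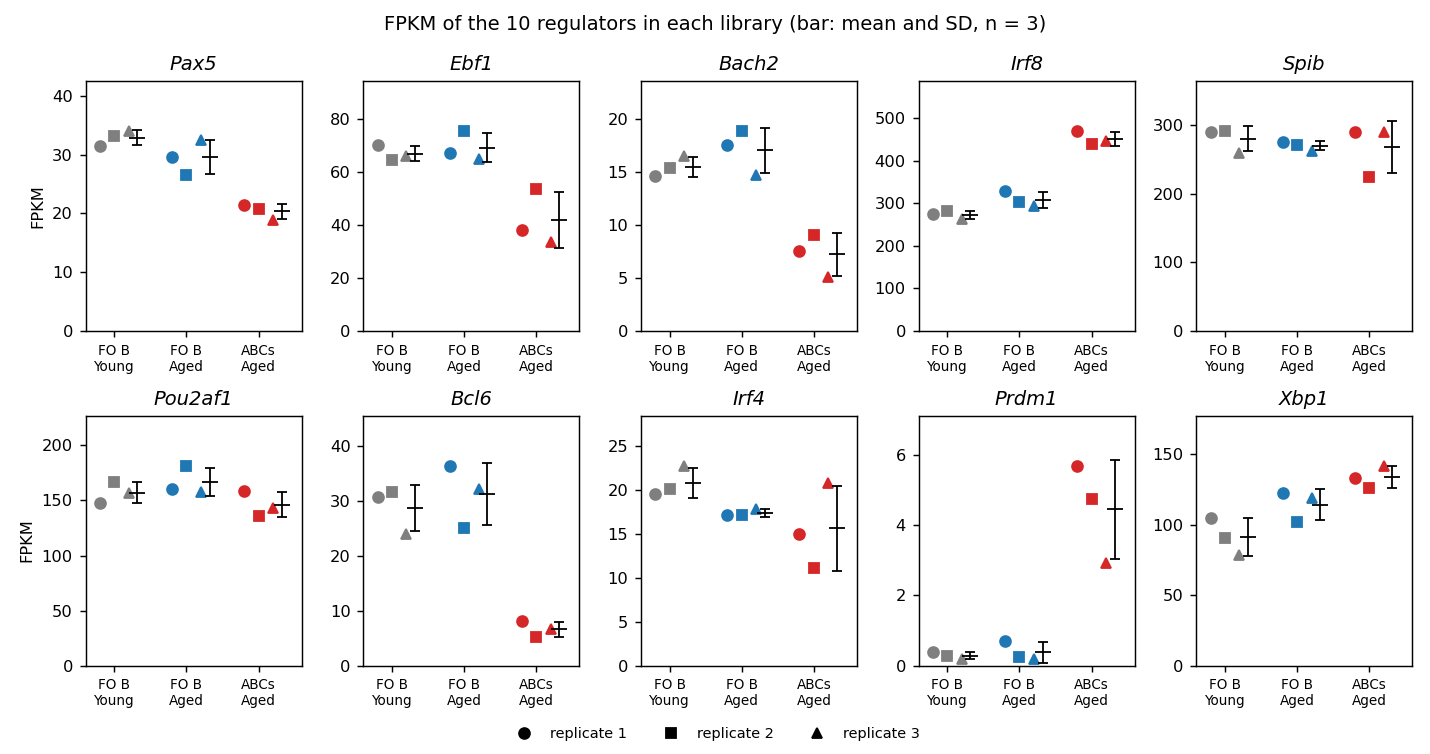
FPKM (linear axis from 0) of each regulator in the 9 libraries, with replicates by symbol and the mean and SD of 3 libraries in black. Bcl6, Bach2, Ebf1 and Pax5 sit lower and Prdm1, Irf8 and Xbp1 sit higher in every ABC library than in every FO B library. Of these, Xbp1 was not called between the aged groups. Spib and Pou2af1 overlap between groups, and Irf4 overlaps between ABCs and FO B cells. The share of all genes without overlap was not counted.

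Pax5, the commitment factor of the B lineage, is annotated on chromosome 4 from 44524757 to 44710487 on the minus strand (GENCODE M21 on GRCm38). It measured 21.4, 20.7 and 18.8 FPKM in ABC replicates 1, 2 and 3, 29.6, 26.6 and 32.5 in FO B (Aged), and 31.5, 33.2 and 34.0 in FO B (Young). All ABC libraries lay below all FO B libraries, and the FO B groups overlapped. Pax5 fell by 0.52 ± 0.10 (log2, SE) in ABCs (Aged) against FO B (Aged), at an adjusted p of 0.00625 in limma. With upper quartile scaling the difference was -0.34 and the call was lost, at a limma adjusted p of 0.125. Exons of Gm12462 and 5730488B01Rik overlap Pax5, the latter at 9.70 FPKM on average in ABCs (Aged) and 12.3 in FO B (Aged), and the counting could split reads between them.

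Ebf1, which acts beside Pax5 to open and activate B cell genes, lies on chromosome 11 from 44617317 to 45008091. It was at 38.2, 53.6 and 33.4 FPKM in the ABC libraries, at 67.2, 75.4 and 64.8 in FO B (Aged), and at 70.0, 64.6 and 65.9 in FO B (Young). ABC replicate 2 came closest to the FO B range but did not reach it. The decrease was 0.74 ± 0.17 (log2, SE; limma adjusted p = 0.0123), and with upper quartile scaling it was -0.56 and no longer called, at a limma adjusted p of 0.0838.

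Bach2, the repressor that holds back Prdm1 and with it plasma cell differentiation, lies on chromosome 4 from 32238804 to 32586108. ABCs (Aged) gave 7.55, 9.03 and 5.07 FPKM, FO B (Aged) gave 17.6, 18.9 and 14.7, and FO B (Young) gave 14.6, 15.4 and 16.5. The ABC mean was 2.36-fold lower than that of FO B (Aged) with no overlap, and Bach2 fell by 1.16 ± 0.19 (log2, SE; limma adjusted p = 0.00374). Exons of the antisense gene Bach2os overlap Bach2, and Bach2os moved with it, at 2.77 FPKM on average in ABCs (Aged) and 6.08 in FO B (Aged). Since no strand was stated for the counting, reads of the Bach2 pair cannot be told apart.

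Irf8, which opposes the plasma cell fate, was the single factor among the 6 of B cell identity to rise between the aged groups. It lies on chromosome 8 from 120736358 to 120756694. ABC libraries measured 470, 438 and 446 FPKM, FO B (Aged) measured 330, 302 and 293, and FO B (Young) measured 276, 281 and 263. No libraries overlapped between any of the 3 groups. The ABC mean was 1.46-fold that of FO B (Aged), a log2 difference of 0.55 ± 0.07 (SE; limma adjusted p = 0.00116).

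Spib, an Ets family factor of B cells, and Pou2af1, the coactivator of the octamer-binding factors, were highly expressed in all groups. Spib gave 290, 224 and 291 FPKM in ABCs (Aged) against 276, 272 and 263 in FO B (Aged). Its log2 difference was -0.02, with a 95% interval from -0.27 to 0.23 (limma adjusted p = 0.903), and the spread among ABC libraries was larger than the difference. Pou2af1 gave 159, 136 and 144 FPKM in ABCs (Aged) against 161, 182 and 158 in FO B (Aged), and its log2 difference of -0.19 missed the threshold in limma (adjusted p = 0.124). In FO B (Young) the 2 genes ranged from 260 to 292 FPKM and from 147 to 167 FPKM.

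Bcl6, the repressor that defines germinal center B cells and blocks Prdm1, had the largest decrease of the 10 regulators in the fit as reported. It lies on chromosome 16 from 23965052 to 23988852 on the minus strand. Its levels were 8.04, 5.27 and 6.56 FPKM in ABCs (Aged), 36.4, 25.1 and 32.2 in FO B (Aged), and 30.6, 31.6 and 23.9 in FO B (Young). Every ABC library had less than the lowest FO B library, and the means differed 4.71-fold between the aged groups. Bcl6 fell by 2.08 ± 0.18 (log2, SE; limma adjusted p = 0.000229). Exons of Gm37419 overlap Bcl6, and Gm37419 had no level of its own among the genes listed, so its part in these reads cannot be told.

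Prdm1, the master repressor of the B cell program in plasma cells, went the opposite way from a very low level. It lies on chromosome 10 from 44437177 to 44528501 on the minus strand. ABC libraries gave 5.70, 4.74 and 2.93 FPKM, FO B (Aged) gave 0.713, 0.243 and 0.180, and FO B (Young) gave 0.382, 0.273 and 0.181. In whole reads recovered from the FPKM steps, this was 234, 215 and 121 reads in ABCs (Aged), 29, 12 and 8 in FO B (Aged), and 17, 12 and 8 in FO B (Young). Prdm1 was thus detected in every library and all ABC libraries were well above all others. The ABC mean was 11.8-fold that of FO B (Aged), and 21.1-fold without FO B (Aged) replicate 1, which had the highest level of its group. The log2(FPKM + 1) difference of 1.97 ± 0.25 (SE; limma adjusted p = 0.00119) understates this ratio because FO B levels were under the pseudocount. Even in ABCs, Prdm1 had the lowest mean of the 10 regulators, and its libraries overlapped those of the next lowest, Bcl6.

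Xbp1, the unfolded protein response factor of secretory cells, was at 133, 126 and 142 FPKM in ABCs (Aged), 122, 102 and 119 in FO B (Aged), and 105, 90.8 and 78.1 in FO B (Young). The aged groups did not overlap, but the log2 difference of 0.23, with a 95% interval from 0.02 to 0.44, missed the threshold in limma (adjusted p = 0.0840). With upper quartile scaling it was called, at a log2 difference of 0.41 and a limma adjusted p of 0.0284.

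Irf4, which is required for plasma cells and is graded in activated B cells, was variable among ABCs. It measured 15.0, 11.1 and 20.7 FPKM there, 17.1, 17.1 and 17.8 in FO B (Aged), and 19.5, 20.1 and 22.7 in FO B (Young). ABC replicate 3 lay above every FO B (Aged) library and the other ABC libraries lay below them. The log2 difference was -0.18, with a 95% interval from -0.65 to 0.28 (limma adjusted p = 0.490). Without ABC replicate 3, Irf4 was called lower, at -0.40 (limma adjusted p = 0.0496), and without ABC replicate 2 the difference was 0.02.

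**Figure D2:**
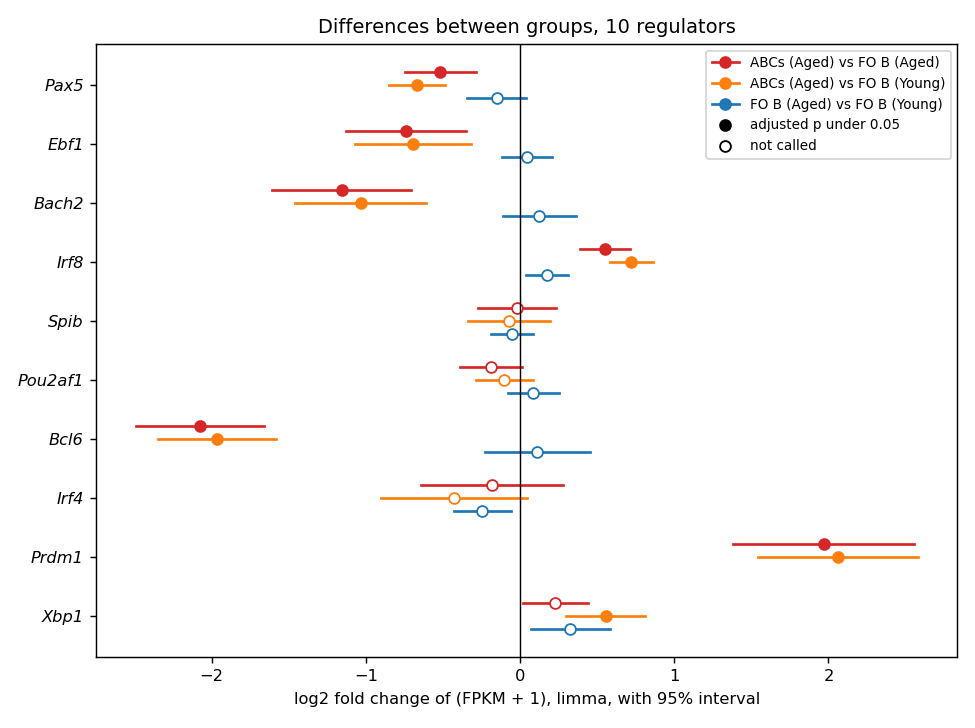
Log2 fold change of (FPKM + 1) from limma with 95% intervals for each regulator in the 3 comparisons (6 libraries each). Filled points passed an adjusted p under 0.05, and Prdm1 was not tested between FO B groups because its mean was under 1 FPKM. Bcl6 lies near -2 and Prdm1 near 2 in both ABC comparisons, which share the ABC libraries, and no FO B comparison is filled.

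The order of the levels changed at its lower end. In FO B (Aged) the order by mean FPKM was Irf8, Spib, Pou2af1, Xbp1, Ebf1, Bcl6, Pax5, Irf4, Bach2 and Prdm1, with overlapping libraries for Bcl6 with Pax5 and for Irf4 with Bach2. In ABCs (Aged) it was Irf8, Spib, Pou2af1, Xbp1, Ebf1, Pax5, Irf4, Bach2, Bcl6 and Prdm1. Neighbours with overlapping libraries there were Pou2af1 and Xbp1, Pax5 and Irf4, Bach2 and Bcl6, and Bcl6 and Prdm1. In FO B (Young) Spib came before Irf8, with overlapping libraries, and Pax5 before Bcl6, also overlapping.

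Ratios of opposed regulators within a library do not depend on how that library was scaled. The ratio of Bach2 to Prdm1 was 1.32, 1.90 and 1.73 in ABC replicates 1, 2 and 3, against 24.6, 77.8 and 81.8 in FO B (Aged) and 38.2, 56.3 and 91.2 in FO B (Young). That of Bcl6 to Prdm1 was 1.41, 1.11 and 2.24 in ABCs (Aged), against 51.0, 103.5 and 178.8 in FO B (Aged) and 80.0, 115.7 and 131.9 in FO B (Young). ABC libraries thus held Prdm1 within 2.24-fold of both repressors, and FO B libraries at least 24.6-fold below them. Between the aged groups, Prdm1 relative to Bach2 differed by 5.04 and relative to Bcl6 by 6.01 on the log2 scale. With a pseudocount of 1 these differences were 3.13 and 4.05. Neither ratio overlapped between these groups, with an exact permutation p of 0.1, the smallest that 20 orders allow. Each of the genes already separated these groups, Prdm1 upward and Bach2 and Bcl6 downward. The separation of the ratios was therefore fixed in advance and adds nothing to the single levels.

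Irf8 exceeded Irf4 by 31.4, 39.6 and 21.5 times in ABCs (Aged), by 19.3, 17.7 and 16.4 times in FO B (Aged) and by 14.2, 14.0 and 11.6 times in FO B (Young). The 3 groups did not overlap, and the ratio of Irf4 to Irf8 was 1.68-fold lower in ABCs (Aged) than in FO B (Aged). The Xbp1 to Pax5 ratio was 6.21, 6.09 and 7.53 in ABCs (Aged), 4.13, 3.82 and 3.65 in FO B (Aged), and at most 3.32 in FO B (Young), again without overlap. It was 1.71-fold higher in ABCs (Aged) than in FO B (Aged), and 1.40-fold higher in FO B (Aged) than in FO B (Young). Each of these differences had an exact two-sided permutation p of 0.1, the smallest possible. For Xbp1 to Pax5 between ABCs and FO B cells, the single genes already fixed the separation. The same holds for Irf4 to Irf8 between the FO B groups. The share of other genes or gene pairs without overlap was not counted, so the lack of overlap is not read as an effect of age or cell type.

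**Figure D3:**
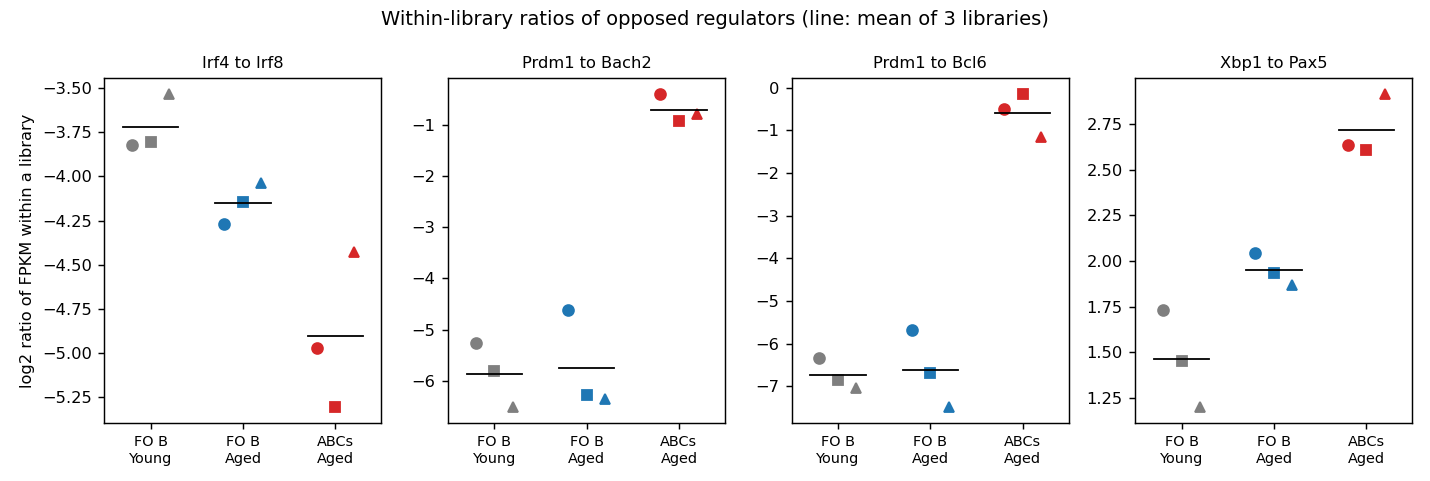
Log2 ratio of FPKM of opposed regulators in each library, with replicates by symbol (circle 1, square 2, triangle 3) and the mean of 3 libraries as a line. The axes are logarithmic and differ between panels. Prdm1 relative to Bach2 and Bcl6 separates ABCs from both FO B groups, while the Irf4 to Irf8 and Xbp1 to Pax5 ratios step through the 3 groups without overlap. Where both genes of a ratio separate groups in opposite directions on their own, the ratio must separate them too.

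Promoter windows of RefSeq (GRCm38.p6, from 250 bases before to 50 bases after a start site) were found for all 10 regulators, 13 windows in all, and searched on both strands for 8 short motifs of factors in this network. The 250 bases before the start are shown for members that were called and held a motif of another member's kind within these bases. All are on the gene's own strand, with matched letters in capitals. Irf8 was called, but its match lay after the start and is not shown. For Ebf1 the window of its downstream start is shown, since the other lies within an annotated exon. The Bach2 and Prdm1 windows also lie inside the annotated spans of their genes. They belong to RefSeq starts downstream of the outermost annotated start. In the motifs below N stands for any base, and whether the base matched there is one the factor prefers was not tested. In the Prdm1 window the capitals, TGAATCA, match TGANTCA, the pattern used for the Bach and AP-1 core. In Pax5 they match AGNGAAAG, the pattern used for the Blimp-1 core, on the opposite strand. In Bach2 they are a match to AANNGAAA, the core of the IRF element, and near the start a run where matches to AANNGAAA, the Ets-IRF element GGAANNGAA and AGNGAAAG overlap on the opposite strand. In Ebf1, AGNGAAAG and AANNGAAA overlap on the opposite strand. In Bcl6, at the downstream of its start sites, AANNGAAA and GGAANNGAA overlap.
Prdm1, chr10:44458749-44458998, minus strand: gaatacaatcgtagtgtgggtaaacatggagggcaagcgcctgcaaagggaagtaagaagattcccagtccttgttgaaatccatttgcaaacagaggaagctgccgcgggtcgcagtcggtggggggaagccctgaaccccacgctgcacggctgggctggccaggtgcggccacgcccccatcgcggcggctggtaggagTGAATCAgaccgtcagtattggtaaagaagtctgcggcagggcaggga
Bach2, chr4:32417185-32417434, plus strand: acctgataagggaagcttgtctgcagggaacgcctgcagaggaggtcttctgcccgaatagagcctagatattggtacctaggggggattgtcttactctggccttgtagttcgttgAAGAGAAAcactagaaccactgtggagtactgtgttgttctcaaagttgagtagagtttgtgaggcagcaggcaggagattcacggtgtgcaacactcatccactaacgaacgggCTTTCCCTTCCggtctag
Pax5, chr4:44710695-44710944, minus strand: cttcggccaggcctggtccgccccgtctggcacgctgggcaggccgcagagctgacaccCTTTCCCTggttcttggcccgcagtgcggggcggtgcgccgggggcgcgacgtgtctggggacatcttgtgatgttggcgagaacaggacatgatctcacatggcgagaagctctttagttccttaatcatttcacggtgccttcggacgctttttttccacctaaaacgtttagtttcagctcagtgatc
Ebf1, chr11:44619978-44620227, plus strand: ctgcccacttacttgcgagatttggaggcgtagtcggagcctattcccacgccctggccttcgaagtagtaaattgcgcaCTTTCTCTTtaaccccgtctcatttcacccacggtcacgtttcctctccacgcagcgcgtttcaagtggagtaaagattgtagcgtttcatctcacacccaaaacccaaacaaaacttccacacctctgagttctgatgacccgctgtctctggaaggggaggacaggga
Bcl6, chr16:23981284-23981533, minus strand: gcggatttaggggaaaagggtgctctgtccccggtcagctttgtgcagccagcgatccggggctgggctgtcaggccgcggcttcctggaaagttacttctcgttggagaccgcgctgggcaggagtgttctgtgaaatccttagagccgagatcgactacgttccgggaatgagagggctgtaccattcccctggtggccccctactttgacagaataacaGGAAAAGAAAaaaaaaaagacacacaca

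None of the stretches shown overlaps an annotated exon in GENCODE M21. The motifs are short and common. Of all 32851 promoter windows, 7.81% held TGANTCA, 8.63% held AGNGAAAG, 23.9% held AANNGAAA and 8.24% held GGAANNGAA. Prdm1 was the only member with TGANTCA, AGNGAAAG was found for Bach2, Ebf1 and Pax5, and AANNGAAA for Bach2, Bcl6 and Ebf1. The EBF1 pair CCCNNGGG (13.7% of windows) was found for Irf8 and Spib, and the XBP1 element TGACGTGG (0.676%) for Pou2af1. Neither the octamer ATGCAAAT (1.74%) nor the BCL6 core (0.411%) was in any member window. A match describes letters and not a bound site.

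Against FO B cells of young mice, a comparison that shares the ABC libraries with the one above, 3 regulators were higher in ABCs (Aged) (Irf8, Prdm1 and Xbp1) and 4 were lower (Bcl6, Bach2, Ebf1 and Pax5). Over all genes, 21.6% were higher and 19.1% lower. Bcl6 fell by 1.97, Bach2 by 1.03, Ebf1 by 0.69 and Pax5 by 0.67 on the log2 scale, with limma adjusted p-values of 0.000153, 0.00393, 0.0124 and 0.000674. Ebf1 was at -0.64 and not called with upper quartile scaling (limma adjusted p = 0.0531), under which 66.6% of called genes were higher instead of 53.0%. Prdm1 rose by 2.06, Irf8 by 0.72 and Xbp1 by 0.55, with limma adjusted p-values of 0.000476, 0.000140 and 0.00664. The mean ratios were 16.0 for Prdm1, 1.65 for Irf8 and 1.47 for Xbp1. Irf4 differed by -0.43 and was not called (limma adjusted p = 0.128), but without ABC replicate 3 it was, at -0.65 (limma adjusted p = 0.00796). Spib and Pou2af1 differed by -0.07 and -0.10 with intervals that included 0.

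Within FO B cells, with age as the only difference in the labels, 0 of the 9 regulators tested were called by limma in either direction, where 0.346% of all 10122 genes were higher and 0.119% lower. At an unadjusted p under 0.05, 3 members passed (Irf4, Irf8 and Xbp1), as did 1298 of all genes. Irf8 differed by 0.17 with a 95% interval from 0.03 to 0.31, Irf4 by -0.25 with an interval from -0.43 to -0.06, and Xbp1 by 0.33 with an interval from 0.07 to 0.58 (log2). Libraries of the FO B groups did not overlap for Irf8 and Irf4, and they overlapped for the other regulators. For both genes the exact permutation p was 0.1, the smallest that 20 orders allow, and the limma adjusted p was 0.273 and 0.248. The share of all genes without overlap was not counted, so this is not read as an effect of age. The intervals for Pax5, Ebf1, Bach2, Bcl6, Spib and Pou2af1 all included 0, the widest being that of Bcl6, from -0.23 to 0.45. Prdm1 had a mean under 1 FPKM in both groups and was not tested.

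The genes around the 10 regulators were then read from lists of their known partners and targets, also chosen with earlier results of these data known. Among 14 other regulators of B cell identity, 7 were lower and 2 higher in ABCs (Aged) than in FO B (Aged), and the median log2 difference was -0.32 beside -0.01 for all genes. Over all genes tested, 16.5% were lower and 19.4% higher, so the higher count is at the background. Id3, an inhibitor of E proteins, fell by 3.29 (means 36.1 and 303 FPKM; limma adjusted p = 0.00272), the adaptor Lmo2 fell by 1.43 and Ets1, an Ets factor that restrains plasma cell differentiation, fell by 1.09. Tcf4, an E protein, rose by 1.20 and Ikzf3, which encodes Aiolos, by 1.16. With upper quartile scaling the counts were 3 lower and 3 higher.

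Of 12 other regulators of terminal differentiation, 10 were tested, of which 6 were higher and 3 lower, with a median of 1.12 (all genes, 19.4% higher and 16.5% lower). Zbtb32, a zinc finger repressor, rose by 5.49 (means 116 and 1.75 FPKM; limma adjusted p = 2.28e-05), Id2, another inhibitor of E proteins, by 3.15, and Zbtb20, a zinc finger factor of plasma cells, by 2.05. The growth regulator Myc fell by 1.24, the germinal center factor Mef2b by 1.08 and the NF-kB subunit Rel by 0.89. Ern1 and Ikzf2 were under the filter. Id2 was also higher in FO B (Aged) than in FO B (Young), by 0.85 (limma adjusted p = 0.0287).

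Of 11 genes activated by Pax5 or Ebf1, 3 were higher and 3 lower, with a median of -0.05, counts close to the 19.4% and 16.5% of all genes. Cd72, an inhibitory coreceptor, rose by 2.11 to a mean of 2533 FPKM, the inhibitory lectin Cd22 rose by 1.06 and the kinase gene Blk by 0.50. Fcer2a, which the sort itself selected against in ABCs, fell by 7.51, Vpreb3, a relative of the surrogate light chain genes, fell by 2.51 and the adaptor Nedd9 by 0.63. Under upper quartile scaling the median of these genes turned to 0.13, with the counts at 3 and 3. Cd79a, Cd79b, Ms4a1 and Blnk were not called.

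Of 6 genes repressed by Pax5, 4 were tested and 2 were higher, beside 19.4% of all genes. Fcer1g, the Fc receptor gamma chain, rose by 7.32 (means 698 and 4.30 FPKM; limma adjusted p = 0.000338) and Jchain, which joins IgM and IgA multimers, by 2.34 (limma adjusted p = 0.0188). Flt3 and Notch1 were not called, and Csf1r and Cd28 were under 1 FPKM. Fcer1g was at 1.38, 1.14 and 10.4 FPKM in FO B (Aged), and the ratio of the means was 162.5, or 554.1 without FO B (Aged) replicate 3 and 101.9 without ABC replicate 3. ABC replicate 3 had the highest Fcer1g, 1219 FPKM, and the lowest Jchain, 12.5 FPKM, of the ABC libraries. Of 6 genes repressed by Bach2 or Bcl6, 4 were tested, and the costimulatory ligand Cd80 rose by 4.32 (means 25.7 and 0.312 FPKM) and the heme oxygenase Hmox1 by 1.96. The other tested genes of that list, Cd69 and Cd274, were not called.

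The 19 genes that Xbp1 activates in the unfolded protein response showed 10 higher and 0 lower in ABCs (Aged) against FO B (Aged), where 19.4% of all genes were higher, the median being 0.33, and 9 to 14 were higher over 17 settings. Derl3 and Sec24d, which act in the removal of misfolded proteins and in vesicle transport, rose by 2.39 and 2.14, and the chaperone partner Dnajb9 by 1.15. Hspa5, the central chaperone of this response, was at 513 and 465 FPKM and was not called (limma adjusted p = 0.360). Against FO B (Young), 15 of the 19 were higher and 0 lower, with a median of 0.58, where 21.6% of all genes were higher and 19.1% lower. Between FO B groups, 1 was called, Dnajc3, at 0.42 (limma adjusted p = 0.0494), where 0.346% of all genes were higher and 0.119% lower.

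**Figure D4:**
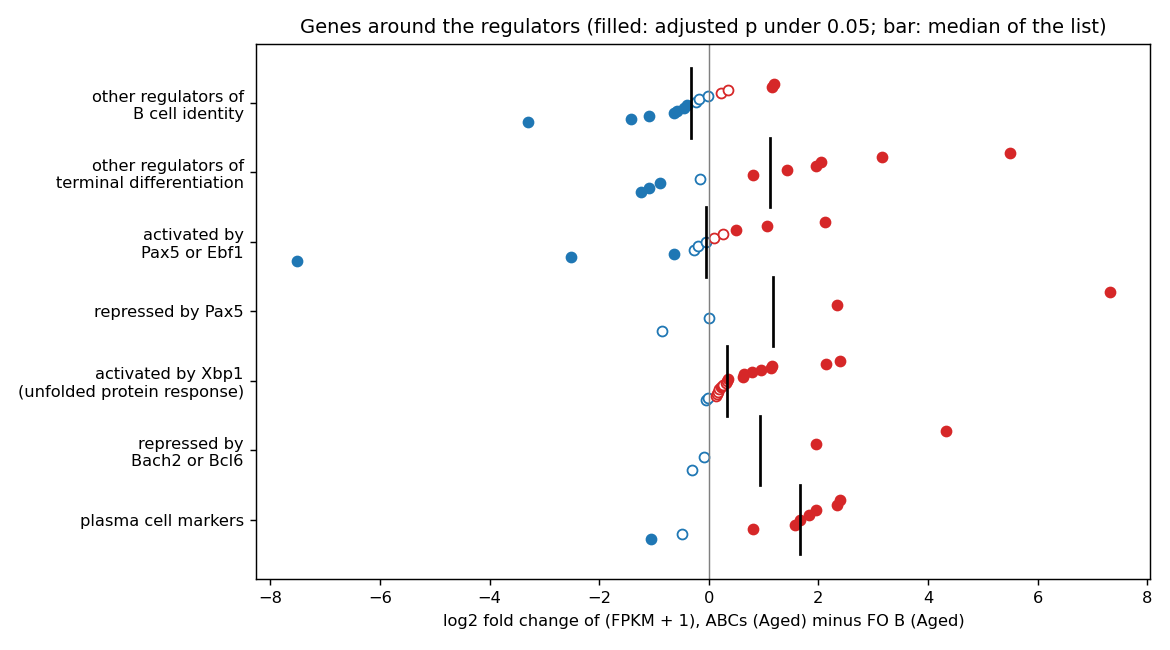
Log2 fold change of (FPKM + 1) in ABCs (Aged) against FO B (Aged) for each tested gene of the lists around the regulators, with the list median as a bar. Filled points passed an adjusted p under 0.05, red is higher and blue lower in ABCs. Genes activated by Xbp1 have 10 filled points to the right and 0 to the left, and genes activated by Pax5 or Ebf1 have 3 on each side.

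Markers of other B cell states and other cell types moved with some of these results. Of 10 plasma cell markers, 9 were tested, 7 were higher and 1 (Slamf7) lower in ABCs (Aged) than in FO B (Aged), beside 19.4% higher and 16.5% lower over all genes. Their summed level was 1650 to 1810 FPKM in ABC libraries, against 536 to 583 in aged FO B libraries and 575 to 599 in young ones. Mzb1 and Txndc5 made up most of it, and Tnfrsf17, which encodes the plasma cell receptor BCMA, was under 1 FPKM in every library. Sdc1, which encodes CD138, was at 9.54, 8.37 and 29.5 FPKM in ABC replicates 1, 2 and 3, highest in the library with the lowest Prdm1, and its ratio between the aged groups was 5.08, or 2.88 without that library. Derl3, Ell2, Eaf2 and Jchain stand in this list and in a list above. Among germinal center markers, Fas and Mki67 were higher and Mef2b lower, and Gcsam, Mybl1 and Nuggc were under the filter. Of 7 marginal zone markers, Cd9, Mzb1 and Plac8 were higher and Cr2, Cd1d1 and Notch2 lower.

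Macrophage and monocyte markers summed to 272 to 323 FPKM in ABC libraries and 20.9 to 27.0 in FO B (Aged). Adgre1 was at 198 ± 24.1 and Ly6c2 at 74.2 ± 11.7 in ABCs. Cd68 was also called higher, at means of 10.7 in ABCs (Aged) and 4.17 in FO B (Aged). Lyz2, at 5.1 and 4.0 in the same groups, was not called, and Csf1r, Cd14, Mertk and Vcan were under 1 FPKM in ABCs. T cell markers summed to 5.10 to 38.8 FPKM in ABC libraries, nearly all of it Cd3g, with the other 7 of 8 genes under 1 FPKM. NK cell markers summed to at most 0.797 FPKM in ABC libraries and neutrophil markers to at most 0.645. Dendritic cell markers summed to 33.1 to 34.2 FPKM in ABC libraries and 34.5 to 55.3 in FO B (Aged). Most of this was Bst2, at 27.0 FPKM on average in ABCs (Aged) and 40.7 in FO B (Aged), without overlap and not called (limma adjusted p = 0.0591). Zbtb46 was higher in ABCs (Aged), at 3.17 FPKM, 3.72-fold the FO B (Aged) mean and 5.75-fold without FO B (Aged) replicate 2, and Xcr1 and Clec9a were under 1 FPKM. The part of such cells in the levels of the 10 regulators was not tested.

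Genes with the pattern most like each regulator were sought by Pearson correlation of log2(FPKM + 1) over the 9 libraries among the 8047 genes averaging 5 FPKM or more. The closest were Fam102a and Mapk11 for Bcl6 (r = 0.998 and 0.994), Pcmtd2 and Dusp7 for Bach2 (both 0.993), Ncl and Sqle for Pax5 (0.996 and 0.995) and Wibg and Tgif1 for Ebf1 (both 0.988). For Prdm1 they were Saraf and Sh2d1b1 (0.990 and 0.989) and for Irf8 Slc35d2 and Erp44 (0.994 and 0.993). The chaperone gene Hspa5 (0.970) and Yipf5 (0.955) were closest to Xbp1, and Mier3 (0.983) and Smarcb1 (0.955) to Irf4. Spib was most like Cpt2 (0.938) and Pdcl (0.910), and Pou2af1 most like Zufsp (0.965) and Mesdc2 (0.892). All points share the same 3 groups of libraries, and these values are a description without a test.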

How the data were processed

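Per the labels, sorted cells gave RNA for SMART-Seq HT cDNA and Nextera libraries. For each library the authors deposited a table of FPKM by gene symbol. The submitters' processing notes name TopHat2 2.1.1, Bowtie2 2.2.8, SAMtools 0.1.18, Cuffdiff 2.2.1 and mm10. The annotation and the use of strand are not given in the sources used here. From the deposited FPKM, log2(FPKM + 1) was fitted with limma 3.58.1 in R 4.3.3 (eBayes with a trend) on the 6 libraries compared, keeping genes that averaged 1 FPKM or more, with Benjamini-Hochberg adjustment over all of them and calls at 0.05. Single ratios were tested with exact two-sided permutation tests over 20 orders. Gene positions come from GENCODE M21 and promoters from RefSeq (GRCm38.p6). Low FPKM values gave the size of 1 read from 537 genes with 1 transcript. Whole reads were recovered for Prdm1 and no other member, and the depth covers counting error only. The fit was tested on simulated data. Other work used Python 3.11.15 and pandas 2.3.3.

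The members and lists were chosen with earlier results of these data known. All members are named, and of each list up to 3 genes with the largest called change in each direction between the aged groups. Other pseudocounts, filters, scalings, fits, thresholds, a replicate block and leaving out each library were tried. Ratios of mean FPKM without each library were added after seeing the data. Protein sequences were not used here. Some listed genes are not reported here.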

Additional observations from a re-analysis of the deposited data

How the results depend on the processing

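With 3 libraries a group, an exact permutation p cannot go below 0.1, and FPKM keep no counting error, so calls rest on limma alone. Leaving out 1 library kept Bcl6, Bach2, Ebf1, Pax5, Prdm1 and Irf8 called in both ABC comparisons, as did quantile normalization, TPM scaling, other pseudocounts and a fit of all 9 libraries. The exceptions under other settings were these. With a mean of at least 5 FPKM, 1 member was higher in ABCs (Aged) against FO B (Aged), since Prdm1 fell under the filter. With upper quartile scaling, 2 members were lower there, and 2781 genes were called against FO B (Young) instead of 4248. At the stricter rule, 0 members were higher and 0 lower in both ABC comparisons, and 200, 230 and 2 genes were called in place of 3739, 4248 and 47. Between FO B groups, 15 genes were called with no filter, 30 without a trend, 20 with all 9 libraries and 19 to 69 when 1 library was left out. The cause was not tested, apart from the filter and the rule themselves.

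Some small differences turned sign, and none was called after the turn. With upper quartile scaling, Spib was at 0.161 in ABCs (Aged) against FO B (Aged), and between FO B groups Ebf1 was at -0.0814, Pou2af1 at -0.0429 and Bcl6 at -0.0142. When 1 library was left out, Spib ranged from -0.0825 to 0.105 and Irf4 from -0.40 to 0.0235 in ABCs (Aged) against FO B (Aged), Spib from -0.135 to 0.0522 against FO B (Young), and between FO B groups Ebf1 from -0.016 to 0.0912 and Bcl6 from -0.0106 to 0.256. Same-numbered libraries of the aged groups deviated with correlations of 0.0845, -0.0190 and 0.108, which does not show that the numbers pair the libraries. With the replicate number as a block, 3448, 3508 and 37 genes were called in the 3 comparisons and the members called were the same.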
